A study of Homo sapiens with 10 samples.

Results

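Prostate cancer cells carry proteins on their surface that imaging tracers, antibodies, antibody-drug conjugates and engineered T cells are built to bind. The genes described here encode 6 of them: *FOLH1* (prostate-specific membrane antigen, PSMA), *STEAP1*, *STEAP2*, *PSCA*, *CD276* (B7-H3) and *CD274* (PD-L1). They are taken here by name, as a set chosen when earlier results of these data were known, and all 6 were found among the 59386 genes listed in each count table. Their RNA was measured in VCaP cells, a prostate cancer line grown from a vertebral metastasis, which expresses the androgen receptor and carries the fusion of *TMPRSS2* with *ERG*. The cells were harvested 72 h after lipid transfection. The study compared control cells (2 libraries) with cells given siRNA A or siRNA B against *SMARCA4* (2 libraries each) and cells given siRNA A or siRNA C against *SMARCA1* (2 libraries each). The targeting siRNAs were used at 30 pmol, and all 10 libraries came from the same line. The labels call the control wild type and do not say which siRNA or dose it received, so transfection as such and the absence of a targeting siRNA cannot be told apart. Nothing in the labels says that the 2 libraries of a group came from separate cultures, so p-values measure the spread between these libraries, which may be technical.

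*SMARCA4* (BRG1) is an ATPase of the SWI/SNF chromatin remodelers, and *SMARCA1* (SNF2L) is an ATPase of the ISWI family, which spaces nucleosomes. PSMA is a folate and glutamate carboxypeptidase whose gene is active in luminal prostate epithelium and is repressed by androgen. STEAP proteins are multipass membrane proteins, most of which reduce metal ions, PSCA is a small glycosylphosphatidylinositol (GPI) anchored protein of the LY6 family, and B7-H3 and PD-L1 are members of the B7 family of immune ligands. *CD274* is switched on by interferons through JAK kinases and the transcription factor IRF1. RNA levels are not protein at the surface, which was not measured here, and in bulk libraries fewer cells expressing a gene and less RNA per cell cannot be told apart.

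Total counts lay between 23898545 and 34667965 per library, and levels are given as CPM, in which counts are scaled to one library size. A floor of 3 counts was 0.0865 to 0.126 CPM. The targeted genes were checked first. *SMARCA4* stood at 20.1 ± 5.29 CPM (SD, n = 4) in its knockdown and 254.9 ± 18.0 CPM (SD, n = 2) in control. *SMARCA1* stood at 2.80 ± 0.737 CPM (SD, n = 4) in its knockdown and 31.9 ± 0.577 CPM (SD, n = 2) in control. *SMARCA1* was also higher in *SMARCA4* knockdown, at 67.3 ± 11.8 CPM (SD, n = 4; log2 fold change 1.07 ± 0.18, SE, adjusted p = 0.001), so the comparison between the knockdowns sets a lowered against a raised *SMARCA1* level. All 13 luminal and VCaP markers were present in every group, with a summed level of 12265 to 12366 CPM in control, 13111 to 14305 CPM in *SMARCA4* knockdown and 10837 to 12332 CPM in *SMARCA1* knockdown. Of 5 basal markers, 2 were at 0 in control (*KRT5* and *DSG3*), and the summed level of the list was 3.26 to 3.72 CPM in control, 38.3 to 114.3 CPM in *SMARCA4* knockdown and 43.6 to 97.8 CPM in *SMARCA1* knockdown, most of it from *KRT14*. The 9 leukocyte markers summed to 2.34 to 2.38 CPM in control, 2.42 to 16.1 CPM in *SMARCA4* knockdown and 9.14 to 23.7 CPM in *SMARCA1* knockdown. *LYZ* averaged 0.657, 7.01 and 16.95 CPM in these groups and made up most of the mean sum in both knockdowns, but not in control. *CD14* went the other way, at 1.68 CPM in control, 0.657 CPM in *SMARCA4* knockdown and 1.07 CPM in *SMARCA1* knockdown. The leukocyte gene *PTPRC* had no counts in control or in *SMARCA1* knockdown, and *CD3D* and *MS4A1* had none in any group. The part of these markers in the results that follow was not tested.

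In control cells the 6 genes spanned from among the most abundant to barely detected transcripts. Per kilobase of the gene length in the count tables, *STEAP1* had the highest level at 122.4 CPM per kb, above 98.5% of the 16899 genes tested. *STEAP2* followed at 73.0 CPM per kb, *CD276* at 68.4 CPM per kb and *FOLH1* at 47.1 CPM per kb, above 97.2%, 97.0% and 95.2% of genes. *PSCA* lay near the middle at 3.86 CPM per kb, above 55.1% of genes, and *CD274* near the bottom at 0.0684 CPM per kb, above 5.6%. All 6 passed the filter on low counts, *CD274* through the knockdown libraries.

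Promoter sequence of RefSeq (GRCh38.p14, 250 bases before to 50 after a start) is shown for *CD274*, the gene with the largest change, and for *STEAP1* and *STEAP2*, which both fell in *SMARCA1* knockdown. Each was searched on both strands for 6 motifs. They were the interferon regulatory factor core GAAANNGAA, the STAT site TTCNNNGAA, the androgen receptor half-site AGAACA, the E-box CACGTG, the cAMP response element TGACGTCA and the AP-1 site TGANTCA. Capitals mark matches. The *CD274* window (plus strand, chr9:5450292-5450591) held 2 overlapping matches to the interferon regulatory factor core, both on the minus strand, that begin at positions -207 and -201 from the start, and 1 STAT site at -125.
CD274: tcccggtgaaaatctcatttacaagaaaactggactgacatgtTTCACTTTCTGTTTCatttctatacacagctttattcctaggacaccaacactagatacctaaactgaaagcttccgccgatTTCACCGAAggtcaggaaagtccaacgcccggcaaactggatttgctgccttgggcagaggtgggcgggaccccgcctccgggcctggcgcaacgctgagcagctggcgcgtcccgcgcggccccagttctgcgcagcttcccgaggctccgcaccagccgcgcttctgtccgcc
The windows of *STEAP1* (plus strand, chr7:90154219-90154518) and of the first of 2 *STEAP2* starts (plus strand, chr7:90211490-90211789) held none of the 6 motifs.
STEAP1: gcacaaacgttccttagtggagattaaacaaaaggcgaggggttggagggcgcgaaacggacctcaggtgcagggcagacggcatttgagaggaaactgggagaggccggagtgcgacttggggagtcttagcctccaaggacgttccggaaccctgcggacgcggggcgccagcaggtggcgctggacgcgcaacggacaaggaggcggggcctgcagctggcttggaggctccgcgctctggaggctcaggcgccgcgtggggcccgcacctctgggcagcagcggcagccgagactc
STEAP2: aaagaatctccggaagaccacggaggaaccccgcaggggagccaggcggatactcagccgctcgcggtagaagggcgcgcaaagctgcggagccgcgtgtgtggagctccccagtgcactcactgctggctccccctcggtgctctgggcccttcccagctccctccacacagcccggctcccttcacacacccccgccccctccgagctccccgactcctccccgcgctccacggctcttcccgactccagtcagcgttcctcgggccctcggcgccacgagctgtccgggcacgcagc
Over 35116 promoter windows of this length, 8.1% held the interferon regulatory factor core, 7.7% the STAT site, 14.8% the androgen receptor half-site, 7.3% the E-box, 1.8% the cAMP response element and 7.7% the AP-1 site. The windows of the second *STEAP2* start and of both *CD276* starts held no match either. G and C made up 66.7% of the *STEAP1* window, 70.3% of the *STEAP2* window shown and 57.3% of the *CD274* window, against a median of 58.7% over all windows. A match is a run of letters and says nothing of binding in these cells. The promoters of *FOLH1* and *PSCA* were not analysed here.

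After *SMARCA4* knockdown 3 of the 6 genes were called (adjusted p below 0.05), against 45.1% of all genes tested. *PSCA* and *CD274* rose, where 22.8% of all genes were called higher, and *FOLH1* fell, where 22.3% were called lower. After *SMARCA1* knockdown all 6 genes were called, against 46.8% of all genes. *PSCA*, *CD276* and *CD274* rose, with 23.8% of all genes called higher, and *FOLH1*, *STEAP1* and *STEAP2* fell, with 23.0% called lower. The median size of the log2 fold change over the 6 genes, whatever its sign, was 0.57 in *SMARCA4* knockdown and 1.55 in *SMARCA1* knockdown, against 0.44 over all genes in each. *CD274* passed the filter on low counts through the knockdown libraries, so its calls as higher, which these counts include, were favoured in advance. Both knockdowns were compared with the same 2 control libraries, so these sets of values are not independent of each other.

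**Figure D1:**
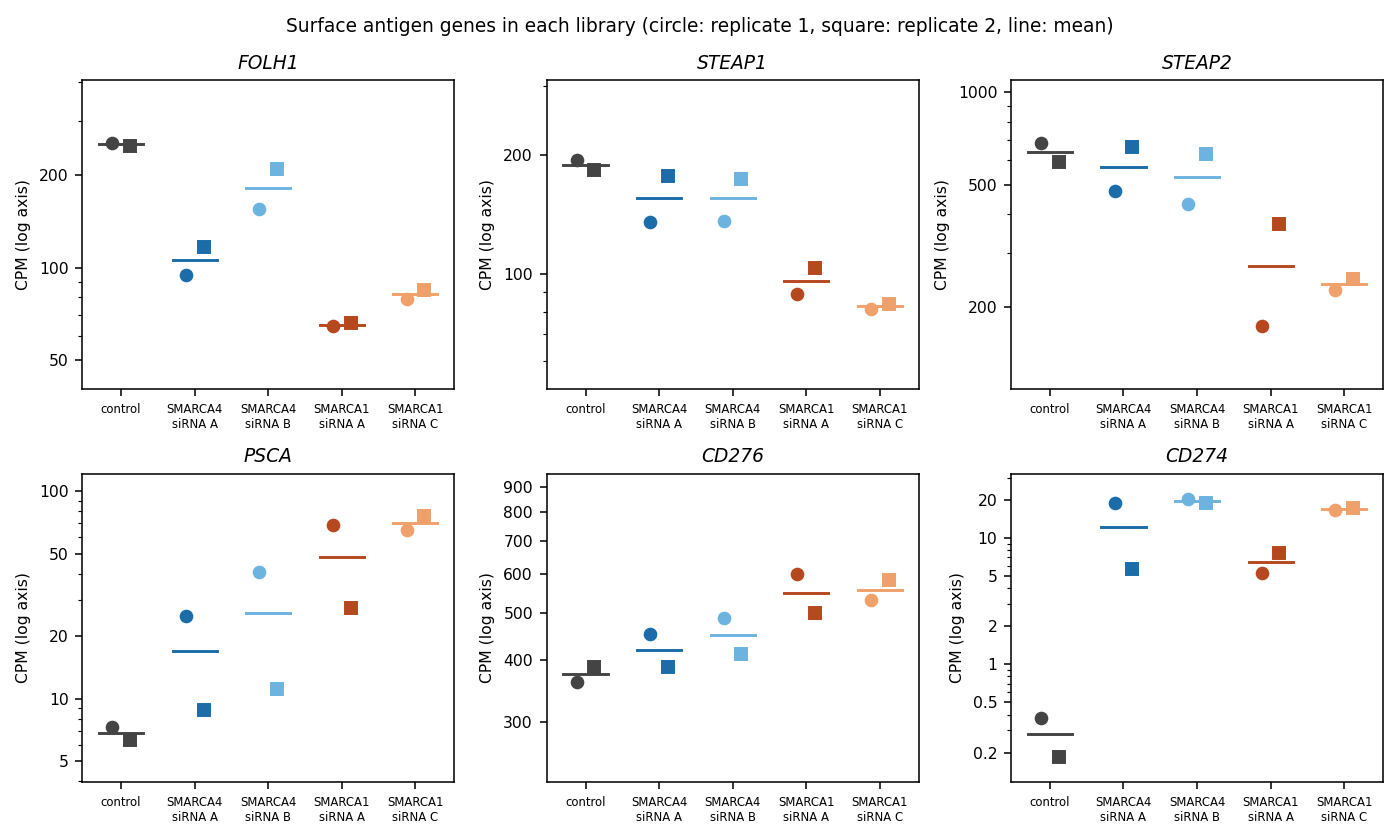
CPM of the 6 genes on log axes in each library, for control and the 4 siRNA groups, with circles for replicate 1, squares for replicate 2 and a line for the mean of the 2. *FOLH1* lies between 64.5 and 84.8 CPM in the 4 *SMARCA1* knockdown libraries and at 248.9 and 253.7 CPM in control, and *CD274* lies above both controls in all 8 knockdown libraries.

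*FOLH1* (PSMA; ENSG00000086205.18, chr11:49145092-49208638, minus strand) is the antigen bound by clinical PSMA tracers. It stood at 253.7 and 248.9 CPM in the control libraries. With *SMARCA4* siRNA A it stood at 94.9 and 117 CPM, and with siRNA B at 154.5 and 209.5 CPM. With *SMARCA1* siRNA A it stood at 64.5 and 66.1 CPM, and with siRNA C at 79.1 and 84.8 CPM. No library of any siRNA group reached the controls, and the 5 groups did not overlap with their neighbours in the order *SMARCA1* siRNA A, *SMARCA1* siRNA C, *SMARCA4* siRNA A, *SMARCA4* siRNA B, control. The mean of the *SMARCA4* knockdown libraries was 57.3% of the control mean, and that of the *SMARCA1* knockdown libraries 29.3%. The log2 fold change was -0.86 ± 0.13 (SE, adjusted p = 0.00052) in *SMARCA4* knockdown and -1.78 ± 0.13 (SE, adjusted p = 1.2e-05) in *SMARCA1* knockdown, which ranked 277 from the lowest of 16899 genes. The siRNAs against *SMARCA4* differed from each other, with *FOLH1* lower with siRNA A than with siRNA B at -0.78 ± 0.15 on the log2 scale (SE, adjusted p = 0.021).

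Reads of *FOLH1* can be shared with *FOLH1B*, a transcribed pseudogene on the same chromosome (chr11:89639237-89698718, plus strand). Of the 50-base windows of *FOLH1* transcripts, 20.6% also occur in transcripts of *FOLH1B*. *FOLH1B* had 21 to 104 counts per library, between 0.848% and 1.85% of the *FOLH1* count, and was called lower in both knockdowns. How reads mapping to several places were counted is not stated. With both counts summed, the log2 fold changes of *FOLH1* kept their calls in the 3 comparisons. *FOLH1B* is too small a share of the *FOLH1* count for the sum to move them much. The sum therefore does not test how shared reads were counted.

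*STEAP1* (ENSG00000164647.9, chr7:90154456-90164829, plus strand) encodes the STEAP protein without reductase activity of its own, a target of bispecific antibodies. It stood at 194.3 and 183.5 CPM in control, at 135.4 and 177.1 CPM under *SMARCA4* siRNA A, and at 136.3 and 174.7 CPM under siRNA B. With *SMARCA1* siRNA A it stood at 88.6 and 103.3 CPM, and with siRNA C at 81.3 and 83.8 CPM. All 8 knockdown libraries lay below both controls, those of *SMARCA4* knockdown at a mean of 82.5% and those of *SMARCA1* knockdown at 47.3% of control. The log2 fold change was -1.09 ± 0.13 (SE, adjusted p = 0.00021) in *SMARCA1* knockdown. In *SMARCA4* knockdown it was -0.28 ± 0.14 (SE, adjusted p = 0.12), with a 95% interval from -0.58 to 0.02. Its near copy *STEAP1B*, elsewhere on chromosome 7, shares 22.5% of the 50-base windows of *STEAP1* transcripts, and had 11 to 42 counts per library, at most 0.839% of the *STEAP1* count.

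*STEAP2* (ENSG00000157214.14, chr7:90167590-90238137, plus strand) encodes a metalloreductase and is the next gene after *STEAP1*, 2761 bases on by the outer bounds of the genes, although the RefSeq starts of *STEAP2* lie well inside its span. It stood at 682.1 and 591.8 CPM in control, at 478.4 and 660.4 CPM under *SMARCA4* siRNA A, and at 431.1 and 627.5 CPM under siRNA B. With *SMARCA1* siRNA A it stood at 173.5 and 371.8 CPM, and with siRNA C at 228.2 and 246.7 CPM. *SMARCA4* knockdown overlapped with control, whereas all 4 *SMARCA1* knockdown libraries lay below it, at 40.0% of the control mean. The log2 fold change was -1.32 ± 0.26 (SE, adjusted p = 0.0024) in *SMARCA1* knockdown. In *SMARCA4* knockdown it was -0.21 ± 0.26 (SE, adjusted p = 0.54), with a 95% interval from -0.80 to 0.37, so a change of either sign within these bounds was not resolved. The libraries with *SMARCA1* siRNA A differed from each other 2.14-fold. The antisense gene *STEAP2-AS1* had 3 to 8 counts per library, and its exons did not overlap those of *STEAP2*.

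Of the rest of the STEAP family, *STEAP3*, an endosomal ferrireductase, fell in both knockdowns. Its level was 34.8 ± 1.44 CPM in control (SD, n = 2), 12.4 ± 4.58 CPM under *SMARCA4* and 17.6 ± 1.05 CPM under *SMARCA1* siRNAs (SD, n = 4 each), with log2 fold changes of -1.55 ± 0.12 (SE, adjusted p = 1.3e-05) and -0.98 ± 0.12 (SE, adjusted p = 0.00019). *STEAP4*, an androgen-responsive metalloreductase, rose in both, from 57.6 ± 2.53 CPM (SD, n = 2) to 104.5 ± 29.1 CPM and 113.6 ± 19.97 CPM (SD, n = 4 each), with log2 fold changes of 0.82 ± 0.16 (SE, adjusted p = 0.0024) and 0.98 ± 0.16 (SE, adjusted p = 0.00098). *CFAP69*, a cilium gene that follows *STEAP2* on the chromosome, fell by 1.83 on the log2 scale in *SMARCA1* knockdown (adjusted p = 0.00049), as *STEAP1* and *STEAP2* did, and its log2 fold change in *SMARCA4* knockdown was -0.23 (adjusted p = 0.51). *STEAP4* is the nearest tested coding gene before *STEAP1*, 1847562 bases away, and moved the other way.

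*PSCA* (prostate stem cell antigen; ENSG00000167653.5, chr8:142670308-142682725, plus strand) rose from a low level. It stood at 7.28 and 6.32 CPM in control, at 25.1 and 8.87 CPM under *SMARCA4* siRNA A, and at 40.7 and 11.2 CPM under siRNA B. With *SMARCA1* siRNA A it stood at 68.7 and 27.5 CPM, and with siRNA C at 65.0 and 75.9 CPM. Every knockdown library was above both controls, and each siRNA group overlapped with the next in the order of mean level. The log2 fold change was 3.10 ± 0.63 (SE, adjusted p = 0.0029) in *SMARCA1* knockdown, 8.58-fold. In *SMARCA4* knockdown it was 1.63 ± 0.59 (SE, adjusted p = 0.046), 3.09-fold, and this call rests on single libraries. It was lost without control replicate 1 (1.77, adjusted p = 0.16), control replicate 2 (1.55, adjusted p = 0.2), siRNA A replicate 1 (1.20, adjusted p = 0.11) or siRNA B replicate 1 (1.06, adjusted p = 0.11). The biological coefficient of variation of *PSCA* was 0.411, against 0.124 for the trend of genes at its level. Exons of *JRK* on the opposite strand cover 367 bases of *PSCA* (20.8%). *JRK* had 596 to 920 counts per library. The libraries kept strand, but whether counting used it is not stated.

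Of 21 other LY6 family genes, 8 were tested, of which 3 rose in *SMARCA4* knockdown (median log2 fold change 0.58) and 4 rose and 1 fell in *SMARCA1* knockdown (median 0.21), against a median of 0.00 over all genes in each and 22.8% and 23.8% of all genes called higher. *LY6E*, an interferon-inducible member, stood at 58.3 ± 1.14 CPM in control (SD, n = 2), 176.1 ± 65.1 CPM under *SMARCA4* and 322 ± 103.8 CPM under *SMARCA1* siRNAs (SD, n = 4 each), with log2 fold changes of 1.57 ± 0.29 (SE, adjusted p = 0.0017) and 2.42 ± 0.30 (SE, adjusted p = 0.00023). *LYPD6B* and *PLAUR*, the urokinase receptor, rose in both. *LYPD3* fell in *SMARCA1* knockdown, by 1.01 on the log2 scale (adjusted p = 0.0029). Of 28 genes of GPI anchor synthesis, which attaches PSCA to the membrane, 27 were tested. In *SMARCA4* knockdown 5 rose and 7 fell (median -0.08), and in *SMARCA1* knockdown 4 rose and 8 fell (median 0.04), where 45.1% and 46.8% of all genes were called in either direction. The rises included *PIGC*, at log2 fold changes of 0.46 and 0.58. The falls included *PIGM*, a mannosyltransferase, and *PIGK*, the catalytic part of the transamidase that joins the anchor to protein, at -0.79 and -0.68 in *SMARCA4* knockdown and -0.80 and -0.95 in *SMARCA1* knockdown (log2 fold changes).

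*CD276* (B7-H3; ENSG00000103855.18, chr15:73683966-73714514, plus strand) is an immune ligand that many carcinomas carry. It stood at 362 and 387.7 CPM in control, at 451.7 and 387.6 CPM under *SMARCA4* siRNA A, and at 487.6 and 411.8 CPM under siRNA B. With *SMARCA1* siRNA A it stood at 597.9 and 500.2 CPM, and with siRNA C at 530.5 and 582.6 CPM. *SMARCA1* knockdown lay above control in all 4 libraries, at 147.5% of the control mean and 0.56 ± 0.12 on the log2 scale (SE, adjusted p = 0.0041). *SMARCA4* knockdown overlapped with control, at 0.21 ± 0.12 on the log2 scale (SE, adjusted p = 0.17) with a 95% interval from -0.05 to 0.48. Its change was the smallest of the 6 genes in *SMARCA1* knockdown, and so was its biological coefficient of variation, at 0.113.

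*CD274* (PD-L1; ENSG00000120217.14, chr9:5450503-5470566, plus strand), the ligand of the inhibitory T cell receptor PD-1, went from near the floor to a moderate level. The control libraries held 9 and 5 counts, which is 0.376 and 0.186 CPM. With *SMARCA4* siRNA A it stood at 18.8 and 5.63 CPM, and with siRNA B at 20.1 and 18.8 CPM. With *SMARCA1* siRNA A it stood at 5.32 and 7.56 CPM, and with siRNA C at 16.6 and 17.3 CPM. Every knockdown library exceeded both controls by more than 10-fold. The log2 fold change was 5.78 ± 0.62 (SE, adjusted p = 7.7e-05) in *SMARCA4* knockdown and 5.22 ± 0.63 (SE, adjusted p = 0.00019) in *SMARCA1* knockdown. They became 6.38 and 5.81 without control replicate 1, and 5.36 and 4.79 without control replicate 2. These folds rest on the few counts in control, whose exact 95% binomial intervals ran from 0.172 to 0.715 and from 0.0611 to 0.439 CPM of the library total, counting error only. *CD274* with siRNA A against *SMARCA1* was 2.64-fold below siRNA C (log2 fold change -1.40 ± 0.43, SE), a difference that did not pass the correction (edgeR adjusted p = 0.17).

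Genes that carry interferon signals to *CD274* also rose. *IRF1*, a transcription factor that interferons induce, stood at 13.6 and 13.6 CPM in control, at 132 and 65.0 CPM under *SMARCA4* siRNA A, 183 and 166.7 CPM under siRNA B, 109 and 93.7 CPM under *SMARCA1* siRNA A and 191.2 and 191 CPM under siRNA C. It rose by log2 fold changes of 3.27 ± 0.26 (SE) in *SMARCA4* and 3.36 ± 0.26 (SE) in *SMARCA1* knockdown, and *JAK2*, a kinase of the interferon gamma receptor that lies on the same chromosome as *CD274*, by 2.88 ± 0.40 (SE) and 2.82 ± 0.40 (SE). In the library with the lowest *CD274* of *SMARCA4* knockdown, siRNA A replicate 2, *IRF1* (65.0 CPM) and *JAK2* (5.57 CPM) were also the lowest of that knockdown. In *SMARCA1* knockdown, siRNA A replicate 1 had the lowest *CD274* (5.32 CPM) and *JAK2* (7.27 CPM), whereas *IRF1* was lowest in replicate 2 (93.7 CPM). The part of these genes in the *CD274* level was not tested.

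**Figure D2:**
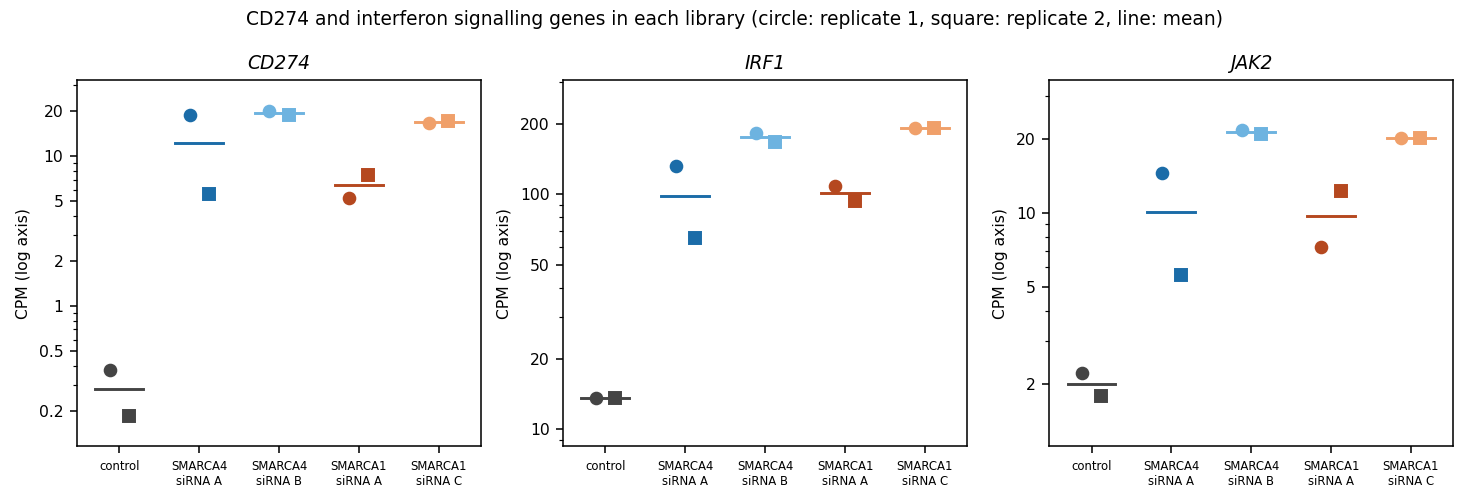
CPM of *CD274*, *IRF1* and *JAK2* on log axes in each library, with circles for replicate 1, squares for replicate 2 and a line for the mean of the 2. All 3 genes are lowest in the controls, and within *SMARCA4* siRNA A replicate 2 is below replicate 1 for each, with *CD274* at 5.63 against 18.8 CPM.

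Of 30 genes of interferon signalling and of PD-L1 protein control, 29 were tested. In *SMARCA4* knockdown 20 rose and 3 fell, with a median log2 fold change of 0.97, and in *SMARCA1* knockdown 22 rose and 3 fell, with a median of 1.06, against 0.00 over all genes in each and 22.8% and 23.8% of all genes called higher. The interferon genes themselves appeared from near 0. *IFNB1* had no counts in the control libraries, which allows at most 0.126 and 0.113 CPM, and averaged 4.21 ± 2.32 CPM in *SMARCA4* and 6.43 ± 3.91 CPM in *SMARCA1* knockdown (SD, n = 4 each). *IFNL1* averaged 0.0186 CPM in control and 21.3 ± 11.97 and 22.5 ± 12.5 CPM in the knockdowns, and *IFNL3*, which is nearly identical to *IFNL2* so that reads may be split between them, 20.9 ± 10.6 and 18.8 ± 9.94 CPM (SD, n = 4 each). *IFNB1*, *IFNL1* and *IFNL3* passed the filter on low counts through the knockdown libraries. Their rises were thus favoured in advance and are part of the counts of rises given here. The 3 genes that fell are not interferon genes. They were *CMTM6* and *CMTM4*, whose proteins protect PD-L1 from degradation, and *CSNK2A1*, a protein kinase. *CMTM6* fell from 234.5 ± 24.8 CPM (SD, n = 2) to 141.2 ± 39.2 CPM and 153.4 ± 26.5 CPM (SD, n = 4 each), with log2 fold changes of -0.77 ± 0.12 (SE, adjusted p = 0.00082) and -0.62 ± 0.13 (SE, adjusted p = 0.0028). *CMTM4* fell by 1.63 (adjusted p = 0.00052) and 1.97 (adjusted p = 0.00022) on the log2 scale.

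The remaining B7 family was sparse in these cells. Of 8 other members, 3 were tested, of which 1 rose and 1 fell in *SMARCA4* knockdown (median log2 fold change 0.40) and 2 rose and 1 fell in *SMARCA1* knockdown (median 0.57). Over all genes 45.1% and 46.8% were called, at a median of 0.00 in each, and 3 genes are too few to describe the family. The second PD-1 ligand *PDCD1LG2*, next to *CD274* in the genome, had 0 to 2 counts in any library, and *VTCN1* (B7-H4) had 0 to 4. *VSIR* (VISTA) averaged 0.0743 CPM in control, 1.06 ± 0.595 CPM under *SMARCA4* and 3.12 ± 1.34 CPM under *SMARCA1* siRNAs (SD, n = 4 each), and was called in both. Its control mean lay below the floor of 3 counts, and it passed the filter on low counts through the knockdown libraries. *NCR3LG1* (B7-H6), a ligand of natural killer cells, fell by 1.45 (adjusted p = 0.0017) and 1.11 (adjusted p = 0.0068) on the log2 scale. *ICOSLG* rose in *SMARCA1* knockdown, by 0.57 ± 0.19 on the same scale (SE, adjusted p = 0.035).

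Compared directly, *SMARCA4* and *SMARCA1* knockdown differed in 5 of the 6 genes, against 35.4% of all genes tested. *FOLH1*, *STEAP1* and *STEAP2* were higher in *SMARCA4* knockdown (16.3% of all genes were called higher), by log2 fold changes of 0.92 ± 0.11 (SE, adjusted p = 0.00028), 0.81 ± 0.11 (SE, adjusted p = 0.00065) and 1.11 ± 0.22 (SE, adjusted p = 0.004). *PSCA* and *CD276* were lower in it (19.1% of all genes were called lower), by -1.47 ± 0.43 (SE, adjusted p = 0.024) and -0.35 ± 0.10 (SE, adjusted p = 0.019). Each of these 5 differences has the sign of a smaller departure from control in *SMARCA4* knockdown. Without *SMARCA4* siRNA A replicate 2, *SMARCA4* siRNA B replicate 2 or *SMARCA1* siRNA C replicate 2, the calls of *PSCA* and *CD276* were lost, and without *SMARCA1* siRNA A replicate 1 that of *PSCA* was. *CD274* was not called, at 0.56 ± 0.30 on the log2 scale (SE, adjusted p = 0.17) and a 95% interval from -0.10 to 1.22. Without *SMARCA4* siRNA A replicate 2 that value was 0.88 and was called, and without replicate 1 of the same siRNA it was 0.02 and was not.

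**Figure D3:**
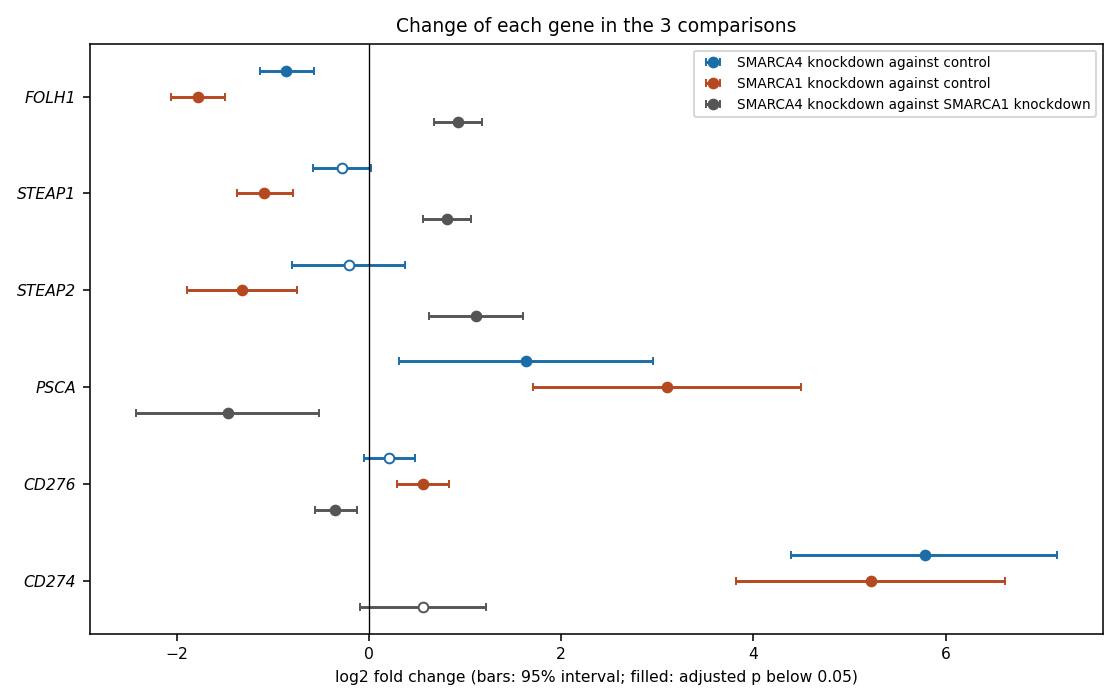
Log2 fold changes of the 6 genes in the 3 comparisons, with bars for 95% intervals, filled points for an adjusted p below 0.05 and open points otherwise. *SMARCA1* knockdown is called for all 6 genes, and *STEAP1*, *STEAP2* and *CD276* are open in *SMARCA4* knockdown, at -0.28, -0.21 and 0.21.

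Each siRNA was also compared with control. With *SMARCA4* siRNA A, 2 of the 6 genes were called (33.2% of all genes), *FOLH1* and *CD274*, and with siRNA B 3 were called (45.0% of all genes), the same pair and *PSCA*. With *SMARCA1* siRNA A and with siRNA C all 6 were called, where 34.8% and 45.3% of all genes were. *FOLH1* changed by -1.25 ± 0.15 and -0.47 ± 0.15 (log2 fold changes, SE) with the *SMARCA4* siRNAs and by -1.94 ± 0.16 and -1.62 ± 0.16 with the *SMARCA1* siRNAs. *PSCA* reached 1.32 ± 0.65 (adjusted p = 0.15) with *SMARCA4* siRNA A and 1.94 ± 0.65 (adjusted p = 0.033) with siRNA B, and the difference between these siRNAs was not called (-0.62, 95% interval from -1.97 to 0.73). Between the *SMARCA4* siRNAs *FOLH1* was the single gene of the 6 that was called (6.20% of all genes). Between the *SMARCA1* siRNAs none of the 6 was called by edgeR, 1 had an unadjusted p below 0.05 (*CD274*), and 0.0118% of all genes were called.

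**Figure D4:**
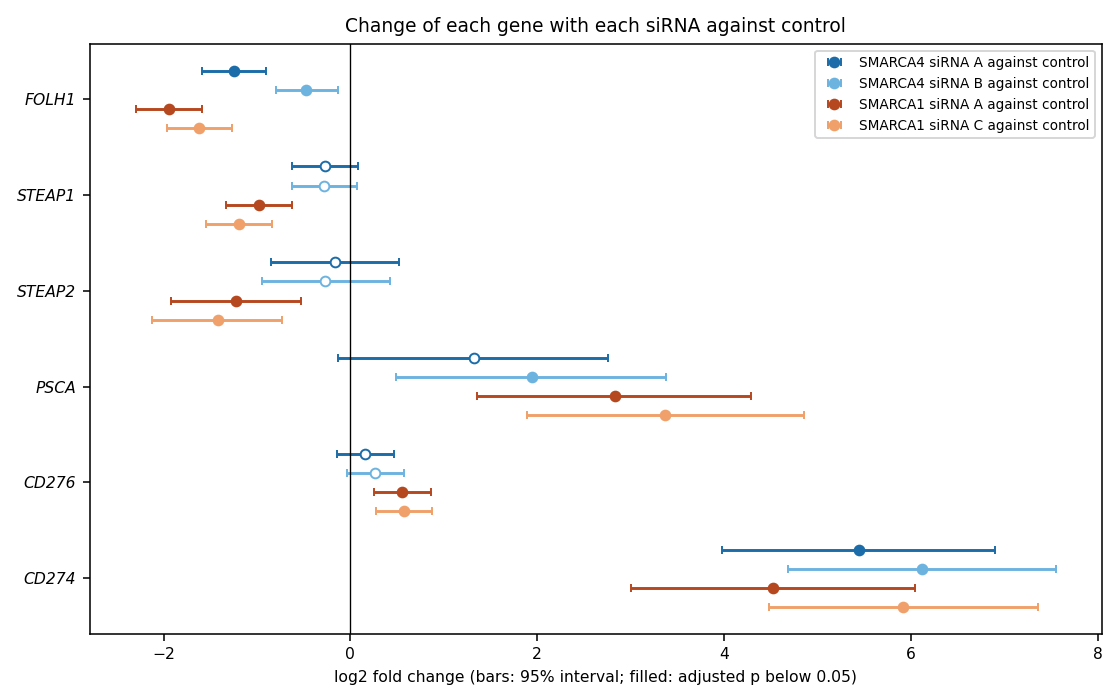
Log2 fold changes of the 6 genes against control for each of the 4 siRNAs, with bars for 95% intervals, filled points for an adjusted p below 0.05 and open points otherwise. The *SMARCA4* siRNAs give -1.25 and -0.47 for *FOLH1*, whose values with the *SMARCA1* siRNAs are -1.94 and -1.62.

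Replicates of a group departed from each other in several of these genes at once. In *SMARCA4* siRNA A, *SMARCA4* siRNA B and *SMARCA1* siRNA A, replicate 1 was higher than replicate 2 in *PSCA* (log2 ratios of 1.5, 1.87 and 1.32) and *CD276* (0.22, 0.24 and 0.26), and lower in *STEAP1* (-0.39, -0.36 and -0.22) and *STEAP2* (-0.47, -0.54 and -1.10). In the control group and in *SMARCA1* siRNA C the log2 ratios of these 4 genes lay between -0.22 and 0.20. *SMARCA1* itself stood at 3.40 and 1.75 CPM in the replicates of its siRNA A, and *SMARCA4* at 25.2 and 23.2 CPM with its siRNA A and 18.6 and 13.3 CPM with its siRNA B. The part of the residual target level in these differences was not tested.

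Other surface antigens under study in prostate cancer did not share one direction. Of 29, 27 were tested, of which 9 rose and 6 fell in *SMARCA4* knockdown (median log2 fold change 0.14) and 11 rose and 5 fell in *SMARCA1* knockdown (median 0.36). Over all genes 45.1% and 46.8% were called. *EPHA2*, a receptor tyrosine kinase, rose from 1.10 ± 0.131 CPM (SD, n = 2) to 4.97 ± 2.59 CPM and 11.4 ± 3.98 CPM (SD, n = 4 each) and *CD47*, which restrains macrophages, from 41.3 ± 4.18 CPM (SD, n = 2) to 100 ± 28.7 and 126.3 ± 33.7 CPM. *CEACAM5*, an adhesion molecule of gut epithelium, stood at 0.820 ± 0.154 CPM (SD, n = 2) in control and 13.1 ± 6.07 CPM (SD, n = 4) in *SMARCA1* knockdown (log2 fold change 3.87 ± 0.78, SE, adjusted p = 0.0028), and the direct comparison put *SMARCA4* knockdown lower, at -2.18 ± 0.49 on the log2 scale (SE, adjusted p = 0.0076). *SLC39A6* and *ADAM9* fell in *SMARCA1* knockdown, by 0.89 and 0.75 on the log2 scale (adjusted p = 0.0002 and 0.0016).

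Among 11 genes related to *FOLH1* by sequence, folate or glutamate, 7 were tested, of which 5 fell in *SMARCA4* knockdown (median log2 fold change -1.01) and 4 fell in *SMARCA1* knockdown (median -0.77), where 22.3% and 23.0% of all genes were called lower. The falls in both knockdowns include *FOLH1B*, which can share reads with *FOLH1* and so is not a separate observation. The relative *NAALAD2*, a carboxypeptidase of the same family, fell by 1.97 on the log2 scale in *SMARCA1* knockdown (adjusted p = 9.7e-05) and was higher in *SMARCA4* than in *SMARCA1* knockdown by 1.57 ± 0.18 (SE, adjusted p = 0.00025). The transferrin receptor *TFRC*, which shares the fold of PSMA, fell by 1.79 (adjusted p = 2.6e-05) in *SMARCA4* and by 1.01 (adjusted p = 0.00079) in *SMARCA1* knockdown, and the folate carrier *SLC19A1* fell by 1.01 in *SMARCA4* knockdown (adjusted p = 0.00019). All 16 genes of the androgen receptor program were tested. In *SMARCA4* knockdown 8 rose and 2 fell (median 0.38), and in *SMARCA1* knockdown 4 rose and 7 fell (median -0.07), against 45.1% and 46.8% of all genes called. In the direct comparison 10 of the 16 were higher in *SMARCA4* knockdown (median 0.41), against 16.3% of all genes, among them *SLC45A3* (1.62 ± 0.12) and *ACP3* (1.55 ± 0.17; log2 fold changes, SE). *FOLH1*, *STEAP1* and *STEAP2* were not in that list and had the same sign in that comparison. In *SMARCA4* knockdown against control they had the opposite sign to the list median, at -0.86, -0.28 and -0.21, with *STEAP1* and *STEAP2* not called.

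**Figure D5:**
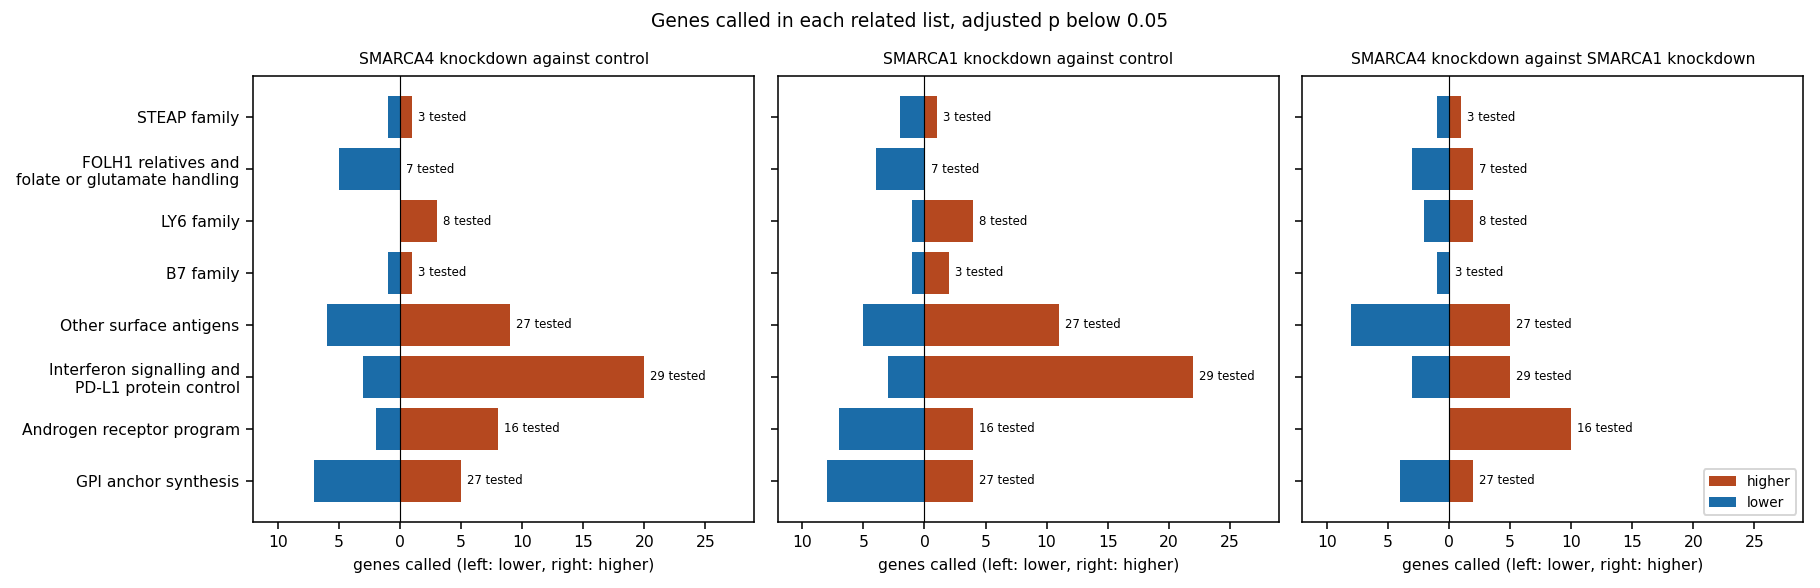
Numbers of genes called higher (right) and lower (left) in 8 lists of related genes, 1 panel per comparison, with the number of genes tested beside each bar. In the list of interferon signalling and PD-L1 protein control 20 and 22 of 29 genes are called higher in the knockdowns against control, and in the androgen receptor program 10 of 16 are called higher in *SMARCA4* than in *SMARCA1* knockdown.

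The genes whose log2 CPM followed each of the 6 most closely were found by Pearson correlation over the 10 libraries among 12191 coding genes. These correlations are descriptive, since the libraries fall into control and knockdown groups. *PSCA* was followed most closely by *SPINK1*, *KRT80* and *S100P* (r = 0.993, 0.991 and 0.988), genes of secretory and stratified epithelium. *CD274* was followed by *TDRD7*, *TENT5A* and *AMOTL2* (0.994, 0.994 and 0.992), *CD276* by *MRPL10*, *BMF* and *ZDHHC16* (0.989, 0.984 and 0.982) and *FOLH1* by *PCNX4*, *CAT* and *SAMD4A* (0.977, 0.974 and 0.972). *STEAP1* was followed by *ALB*, *COLEC12* and *F2R* (0.996, 0.991 and 0.991), and *STEAP2* by *USP9Y*, *CD109* and *RAPH1* (0.989, 0.988 and 0.988). Neighbouring genes did not move alike everywhere. Beside *PSCA*, *ARC* rose with it, by log2 fold changes of 1.15 (adjusted p = 0.0039) and 1.96 (adjusted p = 0.00025), while *THEM6* on the other side fell by 0.68 (adjusted p = 0.0018) in *SMARCA4* knockdown. Beside *CD274*, *PLGRKT* had log2 fold changes of -0.12 (adjusted p = 0.51) and -0.49 (adjusted p = 0.016), and *RIC1* was not called in either knockdown. Beside *FOLH1*, the nearest tested coding genes lay 974251 bases (*PTPRJ*) and 8091000 bases (*TNKS1BP1*) away. *TNKS1BP1* rose in both knockdowns, by 0.97 (adjusted p = 0.00027) and 1.14 (adjusted p = 0.00015), where *FOLH1* fell. Beside *CD276*, *INSYN1* rose in *SMARCA4* knockdown by 1.04 (adjusted p = 0.0094) and stood at 0.22 (adjusted p = 0.52) in *SMARCA1* knockdown, and *NPTN* rose in *SMARCA1* knockdown by 0.35 (adjusted p = 0.036).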

How the data were processed

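RNA-seq libraries of polyadenylated RNA from VCaP cells were analysed, 2 in each of 5 groups. The authors aligned reads to GRCh38 with HISAT2 2.1.0 and counted them per gene with featureCounts 1.5.2 on GENCODE annotations, versions as the submitters' processing notes give them. The deposited values are raw counts per gene, whole numbers without normalization. Groups and replicate numbers came from the labels, and no batch or date is given. The 6 genes and the lists of related genes were chosen with earlier results of these data known.

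In R 4.3.3, edgeR 4.0.16 kept 16899 genes by filterByExpr (minimum count 10, minimum total 15). Counts were scaled by TMM and fitted by the edgeR quasi-likelihood test to all 10 libraries as 5 groups, with Benjamini-Hochberg adjustment over all genes kept and calls at 0.05. Each knockdown averaged its pair of siRNA groups. CPM values are TMM-scaled. Standard errors were taken as the size of the log2 fold change over the root of its F statistic. The script was run on simulated counts whose spread followed the trend over all genes. That trend lies below the biological coefficients of variation of *STEAP2* (0.22), *PSCA* (0.411) and *CD274* (0.3), so the run does not cover their spread. Replicates of every group differed beyond sampling noise (chi-square per gene 3.8 to 60.6), so none was merged. Symbols and positions were compared with GENCODE release 44, which held 39004 of the listed symbols. Intervals and floors cover counting error only.

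The genes named besides the 6 are, per list and comparison, up to 3 of the largest rises and falls among called genes at a mean of at least 1 CPM, a fixed set of relatives, the 3 most correlated coding genes and the nearest tested coding neighbours. Some genes under this rule are not reported here. *JRK*, *KRT5*, *KRT14*, *DSG3*, *LYZ*, *CD14*, *PTPRC*, *CD3D* and *MS4A1* were named after their values were seen. Alternatives were DESeq2 1.42.0, limma-voom (limma 3.58.1), other scalings and filters, the replicate number as a block, the compared libraries alone, near-identical copies summed and each library left out.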

Additional observations from a re-analysis of the deposited data

Results flagged for a closer look

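*CD274* in *SMARCA4* siRNA A replicate 2 stood apart from the other *SMARCA4* knockdown libraries, at 5.63 CPM against 18.8 to 20.1 CPM, a gap that exceeds Dixon's critical value for 4 samples. Chance gives such a gap in about 1 in 20 groups of like libraries, and 2 knockdown groups were examined for each of the 6 genes. The 4 libraries here are 2 of each siRNA, which that rate ignores. Without that library the log2 fold change of *CD274* between the knockdowns was 0.88 and was called, and without siRNA A replicate 1 it was 0.02 and was not. Each of these fits leaves siRNA A with 1 library. The value and its call thus depend on which library of that siRNA is kept.

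*FOLH1* differed between the siRNAs against *SMARCA4*, with a log2 fold change of -0.78 ± 0.15 (SE, adjusted p = 0.021) for siRNA A against siRNA B. Residual *SMARCA4* was 24.2 ± 1.45 CPM with siRNA A and 16.0 ± 3.76 CPM with siRNA B (SD, n = 2 each), so the siRNA with the lower *FOLH1* left more *SMARCA4* RNA. The part of the *SMARCA4* level in this difference was not tested.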

How the results depend on the processing

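No direction of the 6 genes was reversed in 288 values recomputed under the alternatives, and 274 of them kept their side of the threshold. Beyond the left-out libraries, the calls that changed were *PSCA* in *SMARCA4* knockdown with limma-voom (1.40, adjusted p = 0.12), which was lost, and *CD274* between the knockdowns with no filter on low counts (0.58, adjusted p = 0.00018), which was gained. The cause was not tested. Over the libraries left out in turn, *PSCA* ran from 1.06 to 1.98 in *SMARCA4* knockdown. Between the knockdowns *PSCA* ran from -2.07 to -1.06, *CD276* from -0.40 to -0.27 and *CD274* from 0.02 to 0.88. *PSCA* between the knockdowns lost its call without *SMARCA4* siRNA A replicate 2 (-1.18), siRNA B replicate 2 (-1.15), *SMARCA1* siRNA A replicate 1 (-1.06) or siRNA C replicate 2 (-1.41). *CD276* lost it without *SMARCA4* siRNA A replicate 2 (-0.28), siRNA B replicate 2 (-0.28) or *SMARCA1* siRNA C replicate 2 (-0.31). *CD274* between the knockdowns gained a call without *SMARCA4* siRNA A replicate 2 (0.88). The calls of all genes ran from 4413 to 7401 in *SMARCA4* knockdown (7616 with all libraries), from 4430 to 9557 in *SMARCA1* knockdown (7911) and from 3683 to 8072 between them (5982). They were fewest without control replicate 1 (4413 and 4430), and 4913 and 5094 without control replicate 2, where the lone control is assumed to vary like the other groups. Between the knockdowns they were fewest without *SMARCA1* siRNA C replicate 1 (3683) and *SMARCA4* siRNA B replicate 2 (3839).

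With the replicate number as a block, *PSCA* in *SMARCA4* knockdown had a log2 fold change of 1.44 (adjusted p = 0.017), and no call of the 6 genes changed. The block moved the calls of all genes to 7788, 8011 and 6247. Deviations of same-numbered libraries correlated between -0.10 and 0.36. The highest were those among *SMARCA4* siRNA A, *SMARCA4* siRNA B and *SMARCA1* siRNA A (0.36, 0.13 and 0.27), the groups whose replicates differed alike in *PSCA*, *CD276*, *STEAP1* and *STEAP2*. The others lay between -0.10 and 0.05, so not every library correlated best with its own number, and the libraries share only a number.

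With 2 controls, the size of the *CD274* fold rests on 9 and 5 counts.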
